A study of Mus musculus with 24 samples.

Results

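The endoplasmic reticulum (ER) chaperones and the genes of the unfolded protein response were followed here through the liver and brain of mice with and without a working leptin receptor. They were taken as 35 named genes, looked up by symbol among the 55797 gene names of the count tables, and all 35 were found. By role they fall into 17 ER chaperones and folding enzymes, 7 genes of ER-associated degradation and translocation, 4 stress sensors and transducers (Ern1, Eif2ak3, Atf6 and Xbp1), and 7 genes of the ATF4 branch (Atf4, Atf3, Ddit3, Trib3, Chac1, Asns and Ppp1r15a). All 35 passed the filter on low counts in both tissues.

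The libraries are bulk RNA sequencing of whole liver and of brain from male C57/BL6 mice, whose labels carry a treatment entry of 16 weeks. The mice were db/db, with both copies of the leptin receptor gene Lepr altered in every cell, or db/+, with 1 altered copy, so the controls carry the allele too. The drink was water, sucrose or brazzein (a plant protein with a sweet taste), which gives 12 groups of tissue, genotype and drink with 2 libraries in each, 24 in all. The genotype was taken from the sample titles: a separate genotype entry in the labels gives 1 genotype to all libraries of a tissue and goes against the title in 12 of the 24. No source used here gives the brain region or the age of the mice. No label says that the 2 libraries of a group came from separate animals, so the p-values measure the spread between these libraries, which may be technical.

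Secreted and membrane proteins fold in the ER with the help of chaperones and disulphide isomerases. When unfolded proteins accumulate, IRE1 (Ern1) splices the mRNA of XBP1, ATF6 is cleaved to an active factor, and PERK (Eif2ak3) slows translation while favouring that of ATF4. XBP1 and ATF6 raise chaperones and degradation genes, and ATF4 raises genes of amino acid supply and, through CHOP (Ddit3), of cell death; in liver the response is best known for serving the secretion of plasma proteins and for its links to fat metabolism.

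The DNA elements through which these factors act can be read in the promoters of several of the genes, and they are shown for Hspa5 and for the 5 members that hold an ERSE and passed the liver genotype test described below. RefSeq promoter windows (build GRCm38.p6, 250 bases before the start of transcription searched, both strands) were found for 31 of the 35 genes. The ER stress response element, ERSE, which ATF6 and XBP1 bind together with NF-Y, was searched as CCAAT and CCACG with 9 bases between them. It was found in 9 genes (Hspa5, Hsp90b1, Calr, Canx, Pdia6, Dnajc3, Creld2, Derl3 and Syvn1), against 0.13% of the 27025 symbols with a window. Each stretch runs 5′ to 3′ on the gene's strand, with the element in capitals; where it lies on the opposite strand it starts with CGTGG and ends with ATTGG.
Hspa5 (plus strand, chr2:34772011-34772057): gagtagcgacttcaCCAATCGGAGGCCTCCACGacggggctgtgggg
Calr (minus strand, chr8:84847061-84847107): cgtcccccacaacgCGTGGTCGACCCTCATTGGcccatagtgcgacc
Pdia6 (plus strand, chr12:17266477-17266523): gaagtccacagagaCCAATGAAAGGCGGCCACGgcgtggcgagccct
Creld2 (plus strand, chr15:88819506-88819552): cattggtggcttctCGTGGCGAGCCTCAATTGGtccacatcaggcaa
Derl3 (plus strand, chr10:75893228-75893274): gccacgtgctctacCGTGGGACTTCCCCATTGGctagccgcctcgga
Syvn1 (plus strand, chr19:6046518-6046564): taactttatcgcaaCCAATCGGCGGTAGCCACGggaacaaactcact

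A related element, ERSE-II (ATTGG and CCACG with 1 base between them), was found among the members only in Herpud1, against 0.037% of all symbols. The amino acid response element that ATF4 binds (TGATG, then C or A, then AA, then C or T) was found in Asns, Chac1, Herpud1 and Txndc5, against 0.781% of all symbols. It is shown for Asns and Chac1, the genes of the ATF4 branch that hold it. In Chac1 it lies on the opposite strand and so reads GTTGCATCA. The short XBP1 element TGACGTGG was found in Txndc5, against 0.603% of all symbols. These are matches of letters and not shown sites of binding.
Herpud1 (plus strand, ERSE-II, chr8:94386363-94386401): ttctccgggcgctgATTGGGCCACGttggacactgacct
Asns (minus strand, chr6:7693210-7693246): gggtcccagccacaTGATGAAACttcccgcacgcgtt
Chac1 (plus strand, chr2:119351034-119351070): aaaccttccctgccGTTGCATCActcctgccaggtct

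The estimated counts of a library summed to between 60384569 and 79385804 in liver and between 58287665 and 77772849 in brain. TMM factors, which correct for the makeup of a library, were 0.881 to 0.983 in the db/+ livers and 0.971 to 1.19 in the db/db livers, so a scaling by totals alone shifts the genotype difference of all genes: their median log2 difference was -0.03 with TMM and 0.13 with totals. Replicate libraries of brain correlated at 0.973 to 0.976 across genes and those of liver at 0.905 to 0.957, lowest in the 2 brazzein groups. Lepr, the altered gene, was at 1.90 to 18.9 CPM (counts scaled to a common library size) in db/+ liver and 0.690 to 2.50 in db/db liver (edgeR log2 difference -1.93, SE 0.32, adjusted p = 0.0079); a count over the whole gene cannot show the splicing change of the db allele. The liver libraries held hepatocyte markers at summed levels of 58502 to 85580 CPM in db/+ and 64776 to 93670 in db/db, sums made up mostly of Alb; of the 7 genes, 1 was lower by the test, Serpina1a (3498 to 4233 and 1598 to 2072 CPM, log2 -1.03), and Tat, Cps1 and Hnf4a had log2 differences of -0.58, -0.52 and -0.46 that did not pass. The summed erythroid markers were 659 to 1214 CPM in db/+ liver and 1101 to 3708 in db/db liver, with 4 of 5 genes higher by the test, and the macrophage markers were 47.9 to 182 and 87.5 to 165, with 2 of 7 higher. The stellate cell and fibroblast markers summed to 129 to 243 CPM in db/+ and 169 to 260 in db/db, with Col1a1 higher (1.84 to 4.11 and 5.16 to 9.03 CPM, log2 1.40), Des lower (log2 -0.69) and the other 5 of 7 not past the test. Neuron markers in brain summed to 5628 to 5871 CPM in db/+ and 5535 to 5885 in db/db.

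In liver, 9 of the 17 chaperones and folding enzymes were lower in db/db than in db/+ mice over the 3 drinks, and 1, P4hb, was higher (edgeR's quasi-likelihood test, adjusted p at or under 0.05 over 19352 genes). The lower genes were Sdf2l1, Pdia5, Hyou1, Creld2, Manf, Pdia3, Calr, Dnajb11 and Pdia6. Over all genes tested, 7.27% were lower and 7.91% higher, 15.2% in all. The median log2 difference of the 17 was -0.67, against -0.03 over all genes, and 16 of them had a difference below 0. With library totals as the scaling, 8 were lower and 1 higher, with a median of -0.50. In bulk tissue, fewer cells of a type and less RNA per cell cannot be told apart, and whether the hepatocyte, erythroid, macrophage and stellate cell levels given above have a part in these differences was not tested.

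Sdf2l1, a partner of the chaperone BiP that is strongly induced by ER stress, had the largest difference among the chaperones. In db/+ its level was 11.04 and 46.6 CPM in the water pair, 17.4 and 14.1 in the sucrose pair, and 18.8 and 16.5 in the brazzein pair. In db/db the water pair held 3.65 and 4.44, the sucrose pair 4.85 and 3.13, and the brazzein pair 4.34 and 2.86. Every db/db library lay below every db/+ library, and the second db/+ water library stood far above the other db/+ livers. The fitted log2 difference was -2.37 (SE 0.35, edgeR adjusted p = 0.0054), and it remained past the threshold in all 18 alternative analyses.

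Hspa5 encodes BiP, the main ER chaperone of the HSP70 family and a repressor of the stress sensors. It was at 430.3 and 1069.8 CPM in the db/+ water livers, 452 and 498 in the sucrose livers, and 597 and 740.5 in the brazzein livers. For db/db the water livers held 422 and 369, the sucrose livers 429.99 and 361, and the brazzein livers 395 and 359.9. The groups did not overlap, but the highest db/db library and the lowest db/+ library were almost equal, and the db/+ libraries spread more widely. Its log2 difference of -0.67 (SE 0.21) did not pass the threshold (edgeR adjusted p = 0.0643; 0.0273 with DESeq2). Hsp90b1, the ER member of the HSP90 family, was at 525 to 1162 CPM in db/+ and 396 to 521 in db/db, with a log2 difference of -0.58 (SE 0.18, edgeR adjusted p = 0.0682).

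**Figure D1:**
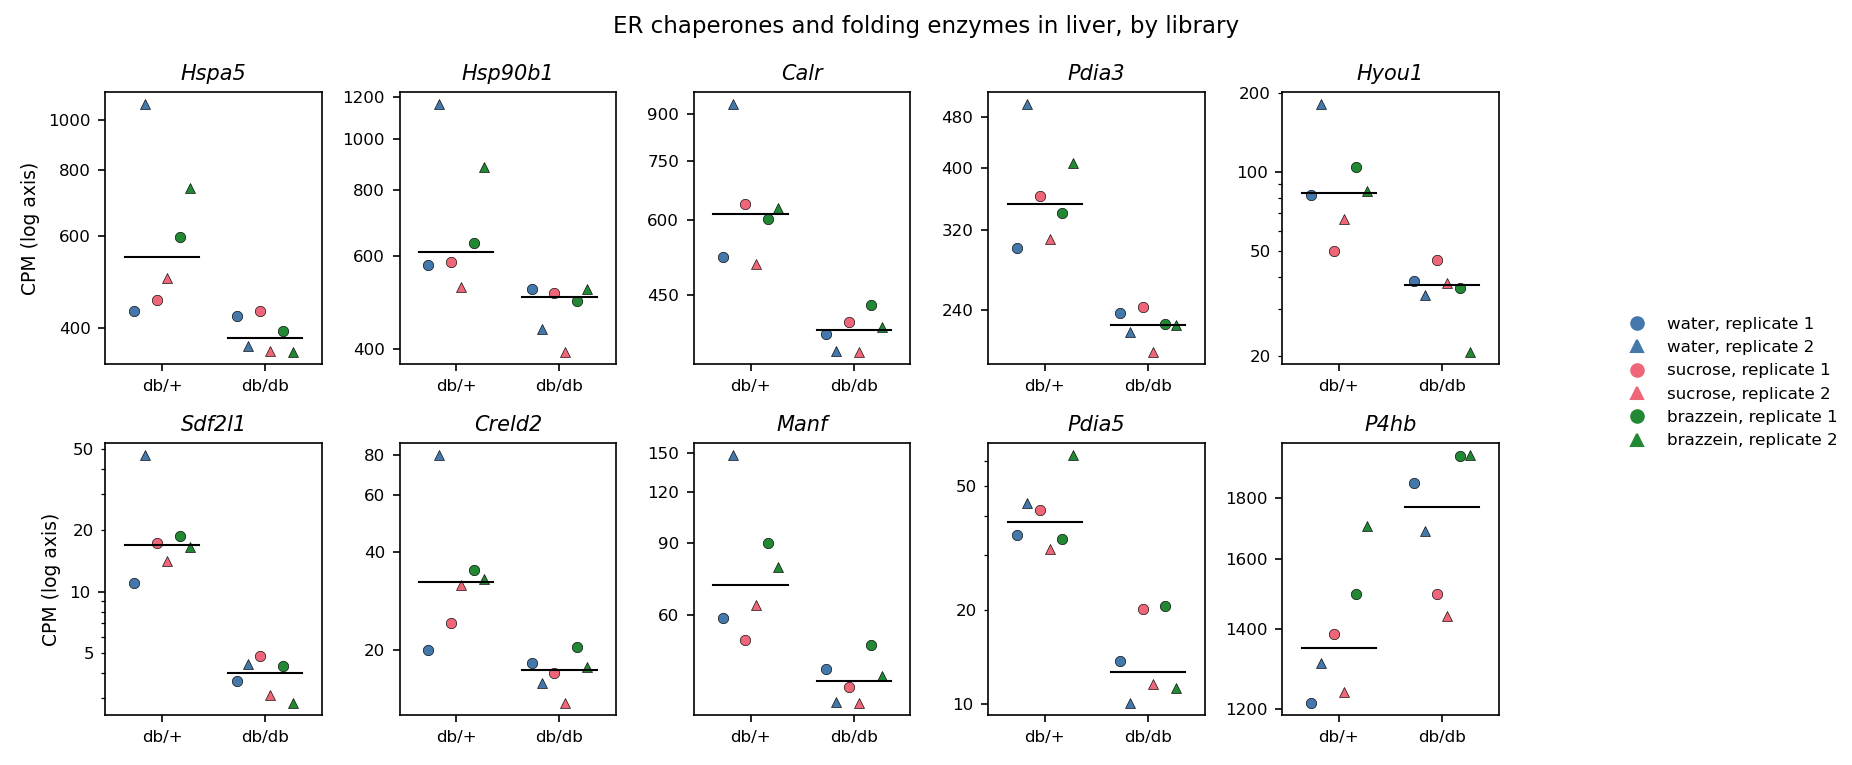
Level of 10 chaperones and folding enzymes in each liver library, in CPM on a log axis. Colour gives the drink, the marker shape gives the replicate number, and the line is the median of 6 libraries. The median of P4hb is higher in db/db and those of the other 9 are lower, and the second db/+ water library is the highest for Hspa5 (1069.8 CPM), Sdf2l1 (46.6 CPM) and 6 others.

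Hyou1, an ER HSP110 that acts as a nucleotide exchange factor for BiP, ran from 49.98 to 182 CPM in db/+ (median 83.6) and from 20.7 to 46.3 in db/db (median 37.1). The groups did not overlap, and the log2 difference was -1.36 (SE 0.23, edgeR adjusted p = 0.0088). Dnajb11, a J-domain cochaperone of BiP, was at 67.0 to 117 CPM in db/+ and 45.8 to 54.7 in db/db, again without overlap (log2 -0.69, SE 0.13, edgeR adjusted p = 0.0128). The other J-domain members, Dnajb9 and Dnajc3, did not pass the test, with log2 differences of -0.24 and -0.30.

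The calnexin cycle folds glycoproteins through the lectins calreticulin (Calr) and calnexin (Canx) and the isomerase Pdia3. Calr was at 507 to 933 CPM in db/+ (median 614) and 362 to 434 in db/db (median 393), with a log2 difference of -0.70 (SE 0.14, edgeR adjusted p = 0.0177). Pdia3 was at 300.01 to 503 in db/+ and 206 to 242 in db/db, with a log2 difference of -0.70 (SE 0.13, edgeR adjusted p = 0.0133). Neither overlapped between genotypes. Canx, at 136 to 219 in db/+ and 131 to 167 in db/db, did overlap, and its log2 difference of -0.18 (SE 0.10) did not pass the test (edgeR adjusted p = 0.239).

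Among the other disulphide isomerases, Pdia5 had the largest difference. It was at 31.5 to 62.7 CPM in db/+ (median 38.5) and 10.1 to 20.7 in db/db (median 12.7), without overlap (log2 -1.51, SE 0.25, edgeR adjusted p = 0.0081). Pdia6, which binds IRE1 as well as folding clients, was at 118 to 242 CPM in db/+ and 87.9 to 103 in db/db (log2 -0.65, SE 0.16, edgeR adjusted p = 0.0309), a call lost in 11 of 18 alternatives. Pdia4 and Txndc5, with log2 differences of -0.60 and -0.33, stood just outside the threshold (edgeR adjusted p = 0.0563 and 0.0528). P4hb, the main disulphide isomerase and a subunit of prolyl 4-hydroxylase and of the lipid transfer protein MTP, went the other way. It was at 1215 to 1704 CPM in db/+ (median 1349) and 1435 to 1952 in db/db (median 1769.6), groups that overlapped, with a log2 difference of 0.31 (SE 0.07, edgeR adjusted p = 0.0218).

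Manf and Creld2 are small secreted proteins whose genes are known ER stress targets. Manf was at 51.9 to 148 CPM in db/+ and 36.5 to 50.7 in db/db, without overlap (log2 -0.93, SE 0.21, edgeR adjusted p = 0.0242). Creld2 was at 20.002 to 79.5 in db/+ and 13.7 to 20.4 in db/db, and 1 library of each genotype crossed (log2 -1.08, SE 0.30, edgeR adjusted p = 0.0473). The call on Creld2 was lost in 14 of 18 alternatives.

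Of the degradation and translocation genes, Syvn1 and Derl3 were lower in db/db liver and none was higher. Syvn1 encodes the ubiquitin ligase HRD1, and it was at 41.8 to 175 CPM in db/+ (median 71.3) and 31.8 to 43.5 in db/db (median 37.9), with an overlap of 1 library (log2 -1.07, SE 0.28, edgeR adjusted p = 0.0393). The Syvn1 call was lost in 13 of 18 alternatives, library totals among them. Derl3, a derlin of the export channel and a low-abundance gene here, was at 1.15 to 4.34 CPM in db/+ and 0.151 to 0.948 in db/db, without overlap (log2 -1.98, SE 0.44, edgeR adjusted p = 0.0218). Derl3 is also abundant in plasma cells, whose 7 markers, Derl3 among them, summed to 216 to 249 CPM in db/+ and 240.2 to 284 in db/db liver. Most of that was Sdc1, which hepatocytes express. Jchain was at 2.09 to 5.48 in db/+ and 0.937 to 3.31 in db/db, and Tnfrsf17 had a median of 0 in both. The medians of Mzb1 (0.354 and 0.234), Ighm (3.23 and 2.37) and Igkc (8.71 and 3.18) were also lower in db/db. Sdc1, Jchain, Mzb1, Ighm and Igkc did not pass the test. Their part in the Derl3 difference was not tested. Pancreatic acinar cells also express Derl3. Of their 9 markers, Cpa1, Cpb1, Pnlip and Amy2a5 were at 0 in every liver. Cela2a was lower in db/db, at 0.197 to 0.555 CPM in db/+ and 0 to 0.190 in db/db (log2 -3.51, edgeR adjusted p = 0.0074). The 9 summed to 6.31 to 14.9 CPM in db/+ and 9.74 to 13.1 in db/db, most of it Cela1, which did not pass the test. The part of acinar cells in the Derl3 difference was not tested either.

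The other genes of this role gave differences of both signs, none past the threshold. Edem1, which hands misfolded glycoproteins to degradation, was at 18.4 to 60.9 CPM in db/+ and 57.7 to 82.7 in db/db (log2 0.62, SE 0.20, edgeR adjusted p = 0.0728), the first db/+ sucrose library being lowest. Herpud1, the HRD1 complex member whose promoter holds the ERSE-II, ranged so widely in db/+ (251 to 823 CPM) that it enclosed the db/db range of 394 to 495 (log2 0.08, edgeR adjusted p = 0.860). Sel1l, Derl1 and Sec61b had log2 differences of -0.07, 0.12 and 0.11, and that of Sel1l turned to 0.10 with library totals. With library totals 2 genes of this role were higher and 1 lower, so the split of calls within it depends on the scaling.

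Xbp1, the transcription factor whose mRNA IRE1 splices, was lower in db/db liver by the test. With water it stood at 88.4 and 96.1 CPM in db/+ and 74.2 and 53.6 in db/db, with sucrose at 74.5 and 76.6 against 51.3 and 61.2, and with brazzein at 131 and 105 against 61.8 and 81.8. The genotypes overlapped, since the higher db/db brazzein library exceeded both db/+ sucrose libraries, and within each drink both db/db libraries were below both db/+ libraries. The log2 difference was -0.56 (SE 0.12, edgeR adjusted p = 0.0218); with library totals it was -0.38 with an adjusted p of 0.0916. These counts cover the whole gene and do not separate spliced from unspliced Xbp1.

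None of the 3 sensors passed the test, and all 3 varied between libraries in ways the genotype did not follow. Ern1 was between 12.4 and 25.5 CPM in 9 of the 12 livers and at 5.83, 3.05 and 4.29 in the first db/+ sucrose library and both db/db brazzein libraries (log2 -0.95, SE 0.32, edgeR adjusted p = 0.085). Eif2ak3 was at 1.99 to 8.04 CPM in db/+ and 6.89 to 13.5 in db/db, where the 2 brazzein libraries were the lowest (log2 0.80, SE 0.27, edgeR adjusted p = 0.0866). Atf6 was close to 0 in 6 of the 12 livers, namely the second water library (0.1002 CPM), both sucrose libraries (0.553 and 1.39) and the first brazzein library (0.0538) of db/+, and both db/db brazzein libraries (1.54 and 1.95). In the other 6 it was at 43.3 to 58.8 CPM. Replicates of 1 group differed by this much on water and on brazzein in db/+, and the genotype difference had a large error (log2 1.07, SE 1.31, edgeR adjusted p = 0.624).

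The ATF4 branch showed no common direction in liver: 1 gene, Atf3, was higher in db/db, 1, Asns, was lower, and 5 did not pass the test, with a median log2 difference of -0.03 (0.14 with library totals). With water, Atf4 itself was at 110.1 and 128 CPM in db/+ and 93.2 and 99.5 in db/db. With sucrose it was at 76.7 and 77.9 against 85.5 and 80.3, and with brazzein at 126 and 108 against 92.1 and 162. With water both db/db libraries were below both db/+ libraries, with sucrose both were above, and with brazzein they overlapped (log2 over the drinks -0.03, SE 0.14, edgeR adjusted p = 0.926). Both sucrose libraries of each genotype were the lowest of that genotype. With library totals the sign of the Atf4 difference turned (0.14). ATF4 is regulated mainly in translation, which RNA levels do not show.

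Atf3, a stress-induced transcription factor with inputs besides ATF4, was the member with the smallest adjusted p. In db/+ it was at 0.708 and 1.503 CPM with water, 0.761 and 0.763 with sucrose, and 1.65 and 1.79 with brazzein. In db/db it was at 3.68 and 2.94 with water, 5.47 and 6.32 with sucrose, and 3.52 and 8.28 with brazzein. Every db/db library was above every db/+ library, at low levels in both (log2 2.10, SE 0.28, edgeR adjusted p = 0.0038).

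Asns, asparagine synthetase, whose promoter carries the amino acid response element shown above, was at 0.522 and 3.01 CPM in the db/+ water livers, 4.26 and 7.47 in the sucrose livers, and 0.448 and 15.3 in the brazzein livers. In db/db liver it was between 0.213 and 0.765 in all 6 libraries. The db/+ libraries were thus divided, 2 of them lying within the db/db range and 4 above it (log2 -3.13, SE 0.84, edgeR adjusted p = 0.0412). The call was lost on leaving out any 1 of 10 of the 12 libraries, with an adjusted p of up to 0.129.

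Chac1, a glutathione-degrading enzyme induced through ATF4, was at 0.389 to 2.87 CPM in db/+ and 0.765 to 4.05 in db/db (log2 1.42, SE 0.42, edgeR adjusted p = 0.056). Ddit3, which encodes CHOP, was near or below 1 CPM in many libraries: with water 0.438 and 2.39 in db/+ and 0.448 and 0.176 in db/db, with sucrose 1.40 and 1.15 against 1.39 and 0.710, and with brazzein 0.574 and 2.53 against 0.737 and 1.10. These overlapped in part, since 3 db/+ libraries were above every db/db library and 1 db/db library was below every db/+ library (log2 -1.07, SE 0.53, edgeR adjusted p = 0.213). Trib3, an inhibitory pseudokinase, ran from 6.72 to 29.4 CPM in db/+ and from 9.80 to 28.5 in db/db. Ppp1r15a (GADD34), the phosphatase subunit that restores translation, ran from 11.6 to 19.005 and from 8.18 to 18.3. Their log2 differences were 0.11 and -0.33.

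**Figure D2:**
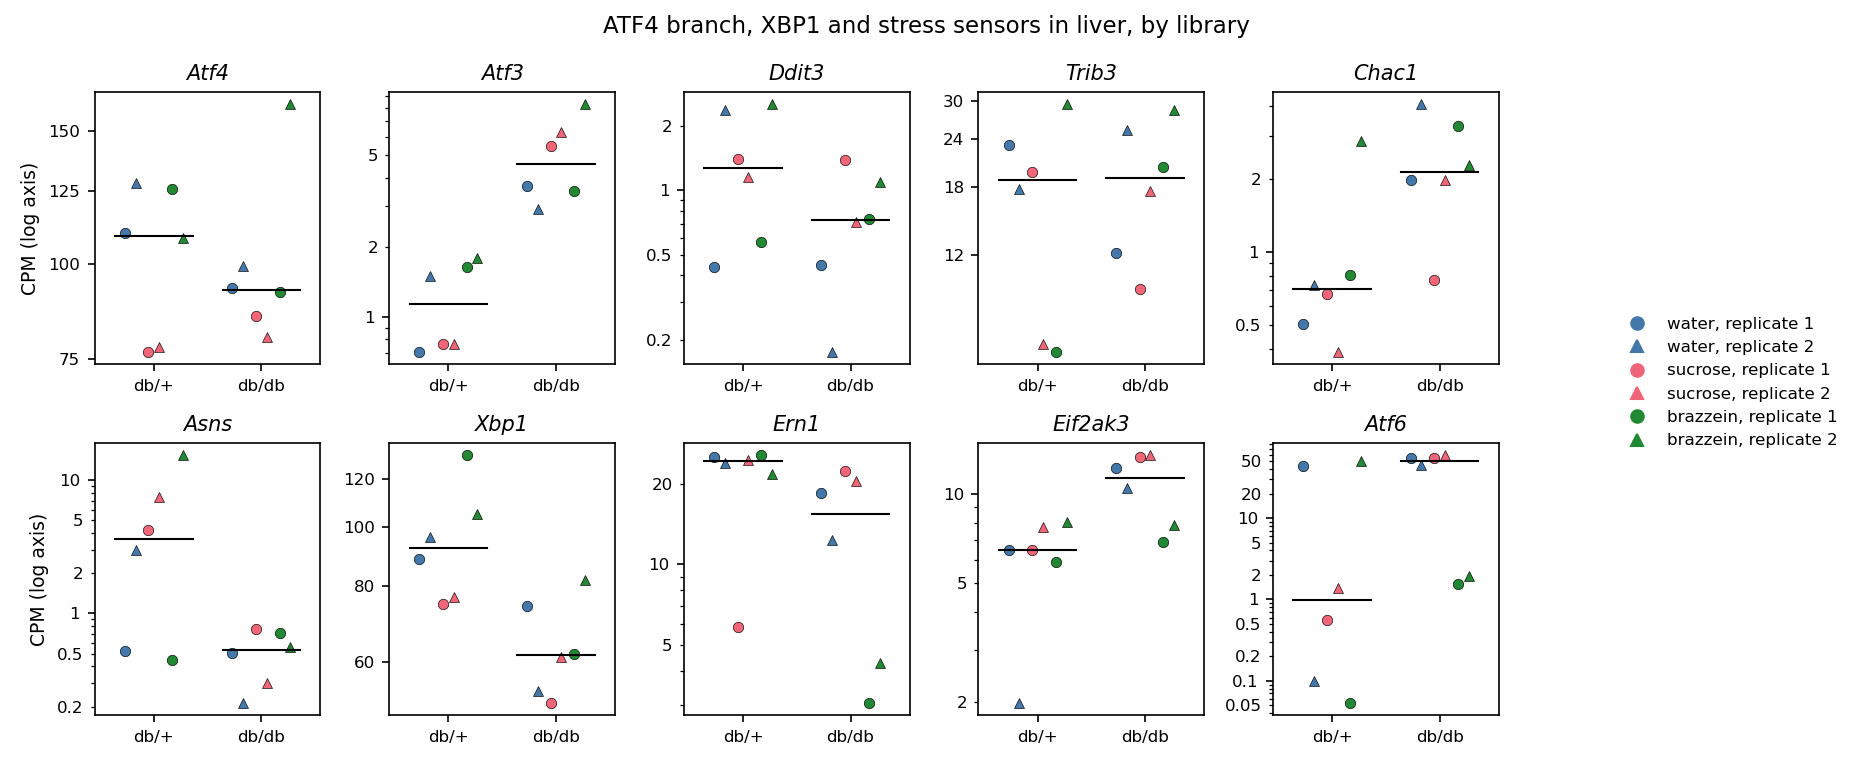
Level of 6 genes of the ATF4 branch and of Xbp1, Ern1, Eif2ak3 and Atf6 in each liver library, in CPM on a log axis, with drink by colour, replicate number by marker shape and the median of 6 libraries as a line. Atf3 separates the genotypes, Asns is divided among the db/+ libraries, and Atf6 lies near 0 in 6 of 12 livers.

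Over all 35 genes, 13 were lower and 2 higher in db/db liver, beside the 7.27% and 7.91% of all genes given above. Of the 35, 12 had all 6 db/db libraries below all 6 db/+ libraries, against 3.51% of the genes tested, and 1 had them above, against 4.91%. All statements on overlap in liver rest on CPM scaled by TMM, and overlap with library totals was not counted. An unadjusted p under 0.05 was reached by 24 members and by 6109 of the 19352 genes tested. DESeq2 called 23 (5 higher and 18 lower, where it called 12.6% of all genes higher and 12.4% lower), and library totals called 15 (5 higher and 10 lower, where 12% of all genes were higher and 4.55% lower). The count fell to 8 without the second db/+ sucrose library, to 9 without the second db/db brazzein library, to 7 or 5 without the first or second db/db sucrose library, and to 9 or 5 without the first or second db/db water library. It was 12 without the second db/+ water library, which held the highest level of 11 of the 17 chaperones. With the 4 brazzein libraries left out, a choice made after seeing the data, 7 members were called (3 higher, 4 lower). How many of all genes were called in that fit, or with 1 library left out, is not given here. Atf3, Hyou1, Pdia5 and Sdf2l1 were called in every one of these alternatives.

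**Figure D3:**
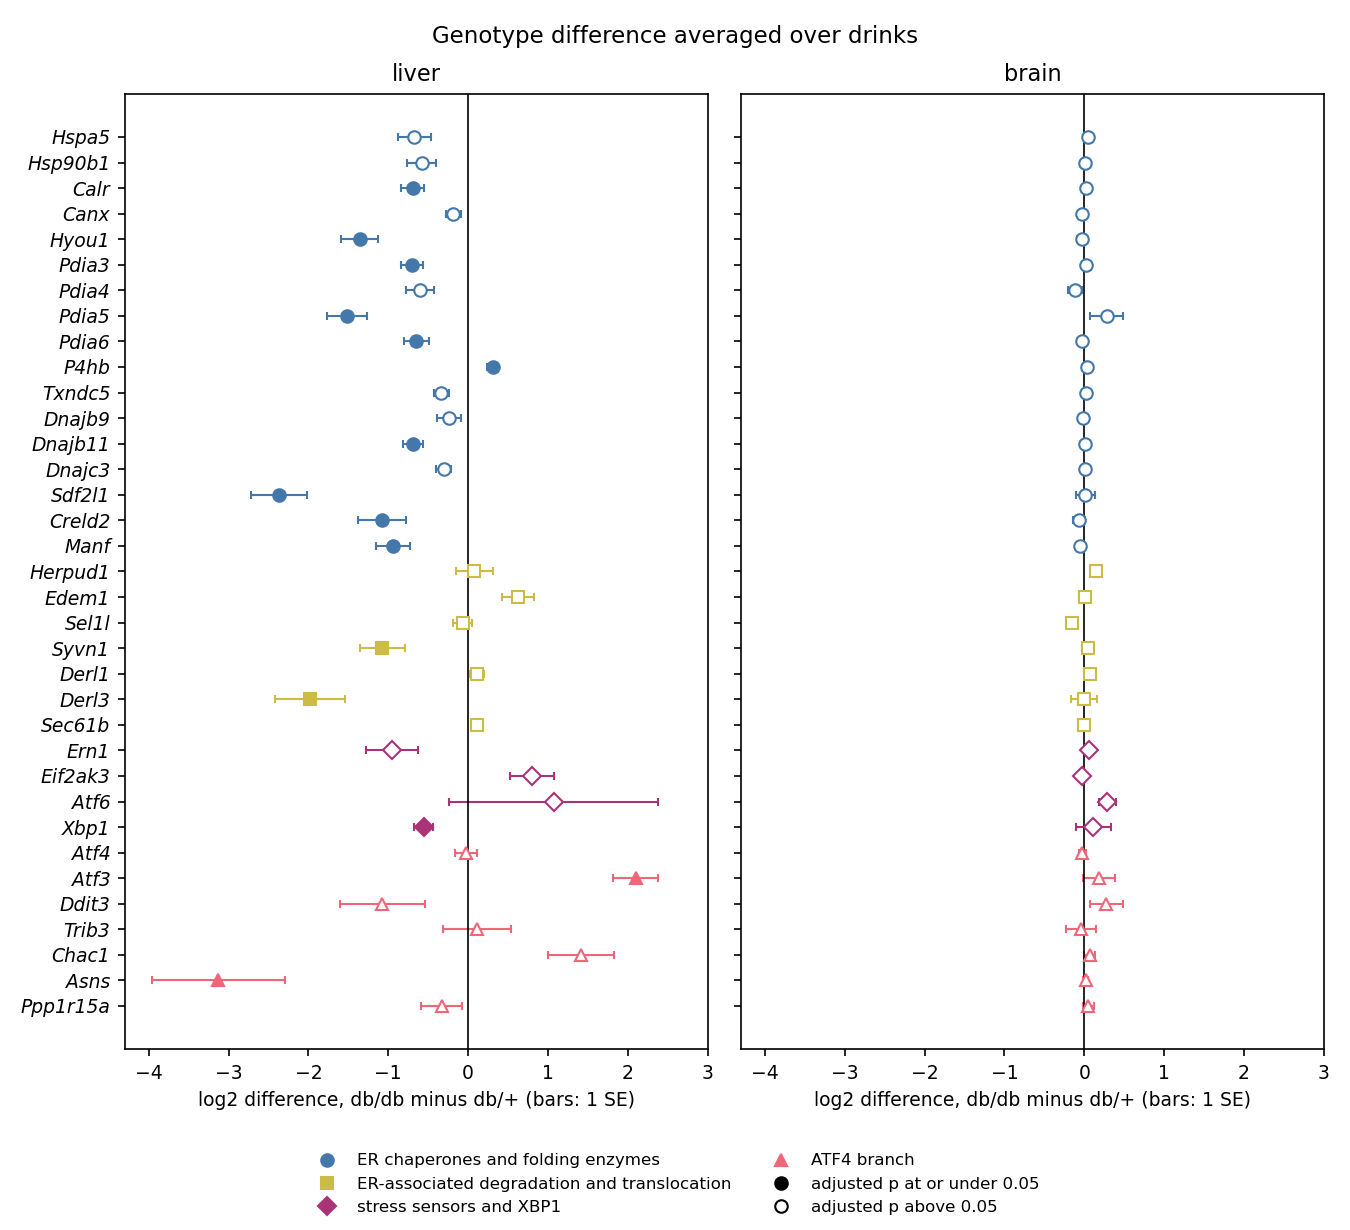
Fitted log2 difference of db/db minus db/+ for the 35 genes, averaged over drinks, in liver (left) and brain (right). Bars are 1 SE, colour and shape give the role, and filled markers have an edgeR adjusted p at or under 0.05. In liver 9 chaperones and 4 other genes are filled to the left of 0 and P4hb and Atf3 to the right; no brain marker is filled.

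Taken drink by drink, each with 2 libraries against 2, most chaperones had log2 differences below 0 in liver on every drink, and none passed the test. The median log2 difference of the 17 chaperones was -0.89 on water, -0.47 on sucrose and -0.64 on brazzein, with 16, 14 and 16 of them below 0. On water no member passed the edgeR threshold, where edgeR called 1.51% of all genes. An unadjusted p under 0.05 was reached by 19 members and by 3798 of 19352 genes. DESeq2 called 12 members and 11% of all genes. The db/+ water pair holds the high library named above. On sucrose an unadjusted p under 0.05 was reached by 7 members and by 3156 of 19352 genes. DESeq2 called 3 members, a share near its 8.22% of all genes. By edgeR 1 member, Atf3, was higher (log2 2.95, SE 0.50, edgeR adjusted p = 0.0452), where 0.868% of all genes were called. That call was lost without either sucrose library of either genotype, without either db/db water library or without the second db/db brazzein library. On brazzein no member passed by edgeR, which called 1.58% of all genes. An unadjusted p under 0.05 was reached by 16 members and by 3380 of 19352 genes. DESeq2 called 6 members and 9.85% of all genes.

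The drinks themselves moved no member past the threshold within either genotype. In db/db liver, sucrose against water, brazzein against water and brazzein against sucrose gave 0 calls by edgeR. Of all genes, edgeR called 0.00517%, 0.119% and 0.16%. An unadjusted p under 0.05 was reached by 0, 2 and 4 members, and by 827, 1658 and 2848 of 19352 genes. DESeq2 called 0, 1 and 3 members (2.79% and 7.08% of all genes in the last pair of comparisons). In db/+ liver the same comparisons gave 0 calls by edgeR and none by DESeq2, where edgeR called 0.0155%, 0.00517% and 0.0207% of all genes. An unadjusted p under 0.05 was reached by 3, 1 and 7 members, and by 1158, 1172 and 1693 of 19352 genes. In db/db liver Ern1 was at 22.3 and 20.4 CPM on sucrose and at 3.05 and 4.29 on brazzein (log2 -2.54, SE 0.59, edgeR adjusted p = 0.122). Sec61b, a subunit of the translocation channel, was at 46.6 and 44.8 CPM on sucrose and 69.96 and 69.4 on brazzein in db/db (log2 0.61, SE 0.14, edgeR adjusted p = 0.113). Leaving out the first or second db/+ sucrose library or the first db/db brazzein library gave 1 call in this comparison. In db/+ liver the median log2 difference of the 35 genes was -0.41 for sucrose against water, -0.03 for brazzein against water and 0.37 for brazzein against sucrose; these share their groups, and the single high db/+ water library enters the first. The test of whether the genotype difference varies with drink called no member by edgeR or DESeq2, where edgeR called 0.062% of all genes. An unadjusted p under 0.05 was reached by 1 member, Ern1 (edgeR adjusted p = 0.618), and by 1411 of 19352 genes.

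Library by library, on CPM scaled by TMM, the chaperones separated the genotypes and the ATF4 branch did not. Among the 17 chaperones, 13 to 17 were above the median of the 12 livers in each db/+ library, and 0 to 3 in each db/db library. The median deviation of the chaperones from their liver median was 0.15 to 0.99 on the log2 scale in the db/+ libraries and -0.34 to -0.07 in the db/db libraries. The medians of the 7 ATF4 genes ran from -0.39 to 0.64 in db/+ and from -0.22 to 0.60 in db/db, overlapping fully. The highest in each genotype was the second brazzein library. TMM factors were mostly lower in db/+ than in db/db livers (0.881 to 0.983 and 0.971 to 1.19). With library totals the median chaperone difference shrank from -0.67 to -0.50. Whether the chaperones of single libraries still separate the genotypes on that scale was not tested.

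**Figure D4:**
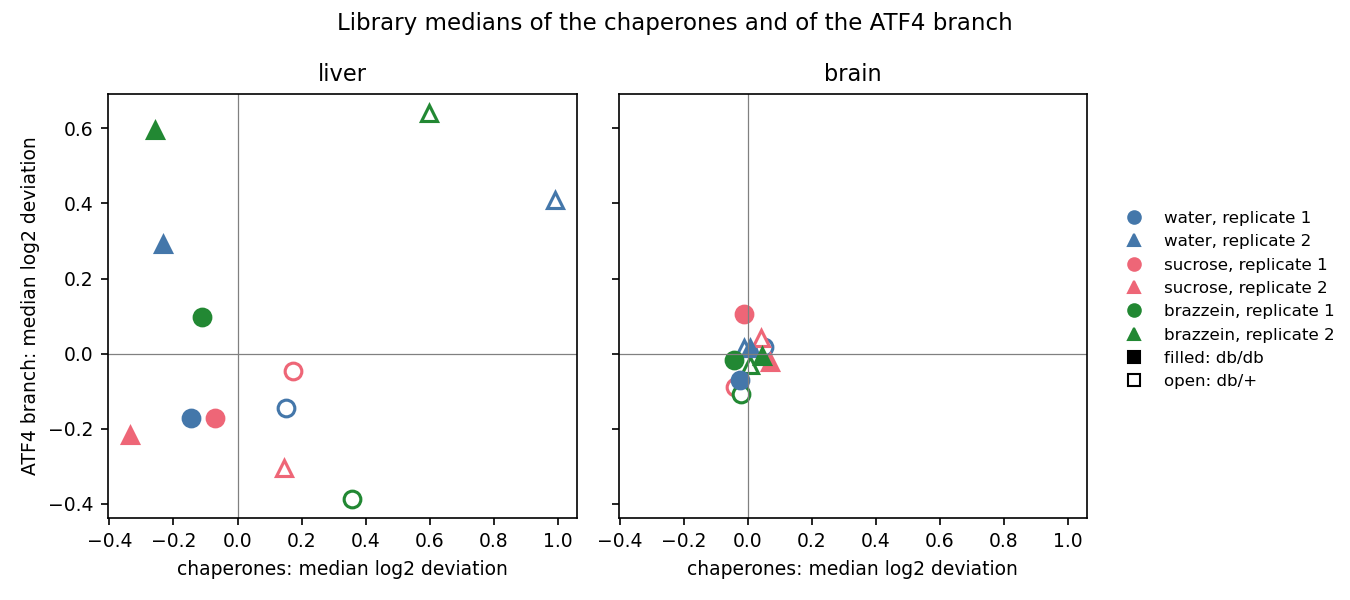
Median log2 deviation from the tissue median of the 17 chaperones (x axis) and of the 7 ATF4-branch genes (y axis) in each library of liver (left) and brain (right), on CPM plus an offset of 0.5. In liver the open db/+ markers lie at 0.15 to 0.99 on the x axis and the filled db/db markers at -0.34 to -0.07, with both spread along the y axis; in brain all libraries lie close to 0.

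Genes beyond the 35 were read from lists of the same pathways, whose counts stand beside 7.27% of all genes lower and 7.91% higher (4.55% and 12% with library totals). With TMM the shares called in the degradation, transport and ATF4 target lists were near these. Of 28 other ER folding genes, 6 were lower and 2 higher in db/db liver (median log2 -0.13; with library totals 2 lower and 4 higher, median 0.04). Prdx4, an ER peroxiredoxin, was at 70.5 to 100.1 CPM in db/+ and 42.4 to 57.8 in db/db (log2 -0.72, SE 0.10, edgeR adjusted p = 0.0043), and Erp44, which retains clients in the early secretory pathway, was also lower (log2 -0.36, SE 0.07). Dnajc10, a reductase of ER degradation, and Calu, a calcium-binding protein, were higher, with log2 differences of 0.57 (SE 0.09) and 0.46 (SE 0.09). Of 25 other degradation and translocation genes, Os9 and Ssr4 were lower (log2 -0.30 and -0.44) and Ssr3 was higher (0.31), and with library totals 0 were lower and 4 higher. Of 20 ER to Golgi transport genes, Kdelr2 (log2 -0.50) and Tmed9 (-0.47) were lower and Sar1b (0.32) was higher, and with library totals 0 were lower and 6 higher.

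Of 30 other ATF4 targets tested, 3 were higher (Psat1, log2 1.34; Gars, 0.34; Gdf15, 1.10) and 1 was lower (Cth, -0.61), with a median of 0.31; library totals gave 7 higher and 0 lower. Psat1 is an enzyme of serine synthesis, Gars charges glycine tRNA, Gdf15 is a secreted stress cytokine and Cth makes cysteine. Of 12 other stress kinases and ER membrane factors, 1 was lower, the liver factor Creb3l3 (log2 -0.36, SE 0.08, edgeR adjusted p = 0.0199), and with library totals 1 was higher and none lower. The cytosolic heat shock genes, which fold proteins outside the ER, gave the largest share called among these further lists: 9 of 18 were lower and none higher, with a median of -0.61 (7 lower and a median of -0.45 with library totals). Among them Stip1 had a log2 difference of -0.84 (SE 0.12), Fkbp4 of -0.63 (SE 0.09), Hspa8 of -1.18 (SE 0.18) and Ahsa1 of -0.61 (SE 0.10).

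In brain no member passed the threshold in any comparison. For the genotype over drinks 3 members had an unadjusted edgeR p under 0.05, where 3275 of 23653 genes did. DESeq2 called 0 members, and at the adjusted threshold edgeR called 0.00846% of all genes. The members' log2 differences ran from -0.15 to 0.29 with a median of 0.01, and the chaperones from -0.11 to 0.28. Hspa5 was at 249 to 278 CPM in db/+ and 262 to 292 in db/db, Sdf2l1 at 7.32 to 9.27 and 6.63 to 10.3, and Hyou1 at 84.5 to 109 and 86.3 to 105. These ranges overlapped and were narrower than in liver. The 3 with an unadjusted p under 0.05 were Herpud1 (72.0 to 83.0 CPM in db/+, 80.6 to 93.6 in db/db, log2 0.15, SE 0.05, edgeR adjusted p = 0.225), Sel1l (191 to 217 and 168 to 199.7, log2 -0.15, SE 0.05, edgeR adjusted p = 0.237) and Atf6 (49.3 to 81.0 and 67.0 to 95.9, log2 0.29, SE 0.11, edgeR adjusted p = 0.301). No member separated the genotypes in brain in either direction, where 0.989% of genes had all db/db libraries below and 0.871% above.

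On water, sucrose and brazzein taken alone, the brain genotype comparisons gave 0 calls by edgeR and by DESeq2. Of all genes, edgeR called 0.00846%, 0% and 0%. An unadjusted p under 0.05 was reached by 2, 1 and 3 members, and by 1607, 2205 and 1928 of 23653 genes. The drink comparisons in db/db brain (sucrose against water, brazzein against water, brazzein against sucrose) gave 0 calls by both tools. Of all genes, edgeR called 0%, 0% and 0.00846%. An unadjusted p under 0.05 was reached by 0, 1 and 1 members, and by 1704, 1139 and 1268 of 23653 genes. In db/+ brain none reached an unadjusted p of 0.05, DESeq2 called 0, and 0% of all genes were called in each; the same held for the genotype by drink test. The 6 choroid plexus markers summed to 768 to 1084 CPM in db/+ brain and 1152 to 1332 in db/db brain, and their part in the brain values was not tested.

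The genotype difference itself was then compared between the tissues in 1 fit of all 24 libraries. No label names the animals, so liver and brain libraries were taken as separate samples, here and in the test of liver against brain below. Whether a liver and a brain library came from the same mouse is not known. It was lower in liver than in brain for 11 members and higher for 2 (edgeR adjusted p at or under 0.05), where 4.34% of 25725 genes were lower and 5.41% higher, 9.75% in all. Of the chaperones, Sdf2l1 (log2 -2.38, SE 0.38), Pdia5 (-1.79, SE 0.34), Hyou1 (-1.32, SE 0.25), Manf (-0.88, SE 0.23), Pdia3 (-0.72, SE 0.15), Calr (-0.71, SE 0.16), Dnajb11 (-0.69, SE 0.15) and Pdia6 (-0.61, SE 0.18) differed in this way, and P4hb in the other (0.29, SE 0.08). Derl3 (-1.98, SE 0.48), Syvn1 (-1.11, SE 0.31), Asns (-3.15, SE 0.83) and Atf3 (1.93, SE 0.35) made up the rest. The call was lost in 24 of 29 alternatives for Pdia6, 21 for Syvn1, 18 for Manf, 15 for P4hb and 10 for Asns. DESeq2 called 22 members and 17.3% of all genes. The count was 8 without either db/+ brazzein brain library, without the second db/+ sucrose brain library or without the second db/+ water brain library, and library totals gave 9 lower and 3 higher, with 2.7% and 7.78% of all genes. Atf3, Calr, Derl3, Dnajb11, Hyou1, Pdia3, Pdia5 and Sdf2l1 were called in all 29 alternatives.

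The levels of the members were compared between genes on the deposited FPKM, which are per length. In liver P4hb was the most abundant at 400.0 ± 78.9 FPKM (SD, n = 12), followed by Herpud1 at 183 ± 55.9, Calr at 168 ± 43.7, Hsp90b1 at 150.1 ± 43.4 and Hspa5 at 99.4 ± 34.1. These spreads hold both genotypes, and the order of Herpud1, Calr and Hsp90b1 differed between them. In db/+ the 3 genes were at 176 ± 81.6, 198 ± 42.5 and 172 ± 53.1 FPKM (SD, n = 6), with spreads that overlap. In db/db they were at 191 ± 9.79, 137 ± 9.95 and 128 ± 12.3 (SD, n = 6), with Herpud1 above the other 2. Ddit3 was the lowest at 0.636 ± 0.340, close to Chac1 (0.748 ± 0.549) and Derl3 (0.754 ± 0.557). In brain the order was Calr (86.8 ± 4.52), Hsp90b1 (80.7 ± 3.42), Canx (60.7 ± 1.06), Hspa5 (51.2 ± 3.04), Pdia3 (47.2 ± 2.26) and Atf4 (46.6 ± 3.00), and Trib3 (0.284 ± 0.062) and Atf3 (0.301 ± 0.083) were lowest. The spreads of Calr and Hsp90b1 overlap in brain, as do those of Hspa5, Pdia3 and Atf4. Since these genes were measured in the same libraries, such overlap does not decide their order, which was not tested within libraries.

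Between the tissues, 26 members were higher in liver and 5 were lower by edgeR, where 33.9% of all genes were higher, 50.6% lower and 84.5% called in all; with library totals 20 were higher and 11 lower (21.5% and 64.9% of all genes), and the sign turned for Atf4, Derl3, Dnajb9 and Ern1 of the called members and for Hyou1, Sel1l and Ppp1r15a of the others. The median log2 difference of all genes was -0.61 with TMM and -1.57 with totals. P4hb (log2 4.47, SE 0.05), Pdia5 (4.63, SE 0.19), Trib3 (5.38, SE 0.30) and Herpud1 (3.43, SE 0.14) were the most liver-rich members, and all 4 remained called with library totals. Asns was the most brain-rich, at 38.2 ± 1.74 FPKM (SD, n = 12) in brain and 1.03 ± 1.58 in liver (log2 -5.25, SE 0.48). Ddit3 (-1.75, SE 0.30), Chac1 (-1.51, SE 0.22) and Eif2ak3 (-1.38, SE 0.14) were also lower in liver, as was Atf6 (-1.67, SE 0.70, edgeR adjusted p = 0.0379), whose call was lost in 17 of 29 alternatives. Hyou1, Canx, Sel1l and Ppp1r15a did not pass the test, with log2 differences of 0.20, -0.07, 0.06 and 0.22; with library totals all 4 were lower in liver, at -0.79, -1.05, -0.92 and -0.76. Canx shows how the scalings differ, since its deposited FPKM was 30.6 ± 4.09 in liver and 60.7 ± 1.06 in brain (SD, n = 12) beside that fitted difference near 0. Of the 31 calls, 24 held in every alternative.

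**Figure D5:**
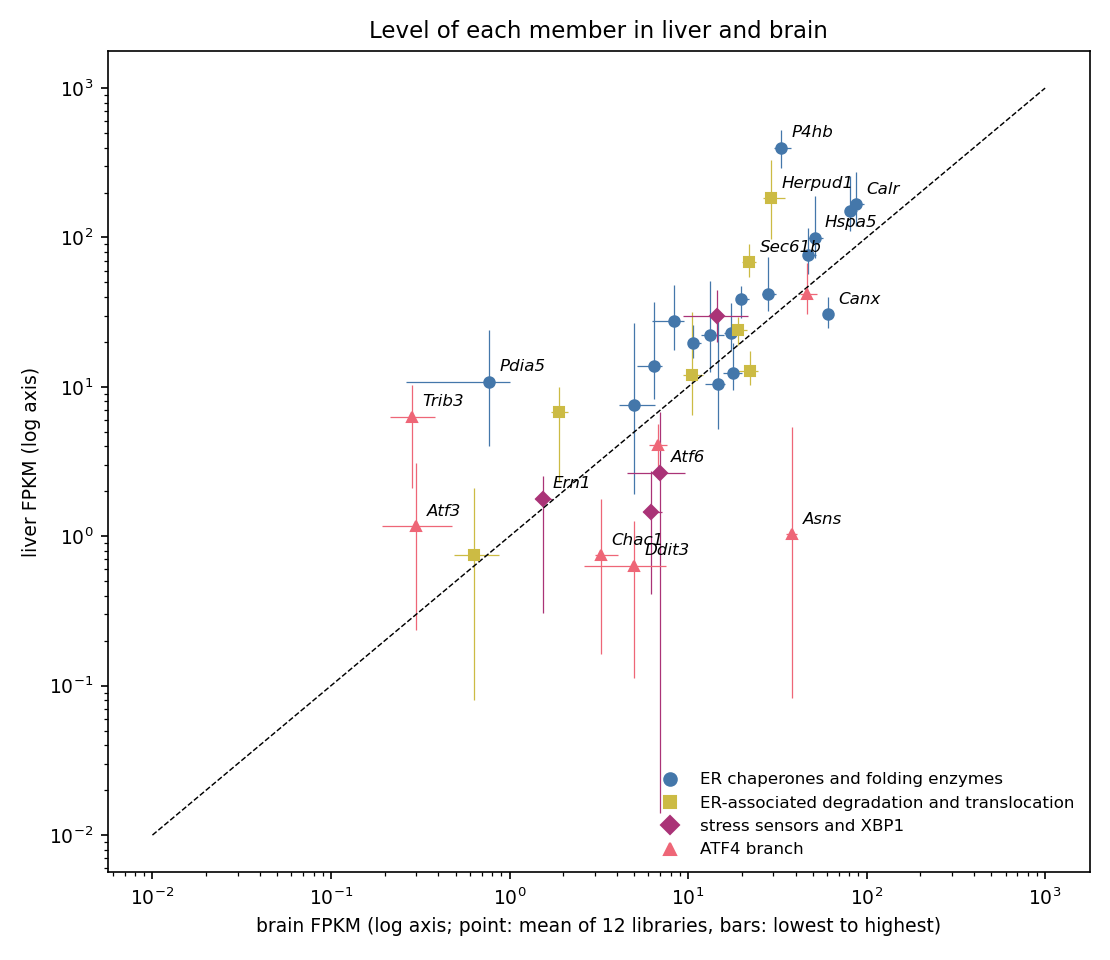
Mean FPKM of each of the 35 genes in 12 brain libraries (x axis) and 12 liver libraries (y axis), both on log axes, with bars from the lowest to the highest library and a dashed line of equality. P4hb (400.0 in liver, 33.1 in brain) and Trib3 lie above the line and Asns (1.03 and 38.2) below it, and the bars are longer in liver than in brain for most genes.

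Set beside the promoter letters, the 9 members with an ERSE had liver genotype differences from -1.98 to -0.18 with a median of -0.67, and 5 of them were called, all lower (Calr, Creld2, Derl3, Pdia6 and Syvn1). The 22 members with a window but no ERSE had a median of -0.28, with 6 lower and 2 higher. All ERSE members but Derl3 and Syvn1 are chaperones, and the 17 chaperones together also had a median of -0.67. The 22 include genes of the other roles, so element and role are not separated here. Hyou1 and Manf, both called lower, had no window and are in neither set, nor are Derl1 and Atf6. The 6 lower members without an ERSE were Sdf2l1, Pdia5, Pdia3, Dnajb11, Xbp1 and Asns, and the 2 higher were Atf3 and P4hb. Of these only Asns held another of the searched elements. The 4 genes with the ATF4 element ran from -3.13 (Asns) to 1.42 (Chac1). These are descriptions of the sequences and not a test of any factor.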

How the data were processed

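RNA was isolated with TRIzol, selected for poly(A) and prepared with the NEBNext Ultra II RNA kit, per the labels' protocols; no strand setting is stated. Reads were written with bcl2fastq and refer to the mouse build GRCm39, per the submitters' processing notes. No source used here names the aligner, counter or annotation. The deposited per-sample files hold estimated counts, 1 whole number per gene name; how the authors derived them is not stated, and no further rounding was needed. The authors' deposited FPKM table was used for levels between genes, and its 24 coverage columns were not used. In the count files the 2 brazzein livers of db/+ carry each other's column names, so which of them is the first stays unsettled; values can exchange only within that group. The replicate correlations were taken between these estimated counts on a log scale.

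Tests used edgeR 4.0.16 under R 4.3.3 (TMM, filterByExpr by group, quasi-likelihood tests, Benjamini-Hochberg adjustment over all genes tested), in fits of 12 liver libraries, 12 brain libraries and all 24, each with every group of 2 as its own level. Genotype differences average the 3 drinks. CPM use the TMM-scaled library size, and medians by library use log2 of CPM plus 0.5. Alternatives were DESeq2 1.42.0, its size factors (RLE) in edgeR, library totals, no filter on low counts, the replicate number as a block and each library left out; leaving out the brazzein livers was added after seeing the data. Steps were tested on simulated counts. Promoter windows come from RefSeq (GRCm38.p6), with none for Derl1, Atf6, Manf and Hyou1. Proteins were not analysed here.

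The members, the pathway lists and the markers were chosen with earlier results of these data known. Values by library were printed for up to 12 members with an adjusted p at or under 0.05, smallest first, as lowest, median and highest where the pattern needs no more, and always for Hspa5, Xbp1, Atf4 and Ddit3; up to 4 called genes were named from each pathway list. Asns, Ern1 and Atf6 were given by library after their values were seen.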

Additional observations from a re-analysis of the deposited data

Results flagged for a closer look

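Among 140 sets of 6 libraries (35 genes, 2 tissues, 2 genotypes), 10 held 1 library far from the other 5 by Dixon's ratio for 6 values; chance flags about 1 in 20 sets. In db/+ liver the second water library was highest for Pdia6 (242 CPM, the others 118 to 151) and for Sdf2l1 (46.6, the others 11.04 to 18.8), and it was lowest for Eif2ak3 (1.99, the others 5.92 to 8.04). The first db/+ sucrose liver was lowest for Edem1 (18.4 CPM, the others 41.3 to 60.9) and for Ern1 (5.83, the others 21.8 to 25.5). The second db/+ brazzein liver was highest for Chac1 (2.87 CPM, the others 0.389 to 0.807), and the second db/db brazzein liver was highest for Atf4 (162, the others 80.3 to 99.5). In db/+ brain the first brazzein library was lowest for Pdia5 (0.716 CPM, the others 1.86 to 2.18) and the first sucrose library for Derl1 (81.5, the others 85.5 to 87.2). In db/db brain the first sucrose library was highest for Atf4 (134 CPM, the others 112 to 118).

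The genotype difference in liver departed from that in brain, by the edgeR test of the difference itself, for 13 genes. It was lower in liver for Sdf2l1 (log2 -2.38), Derl3 (-1.98), Pdia5 (-1.79), Hyou1 (-1.32), Syvn1 (-1.11), Manf (-0.88), Pdia3 (-0.72), Calr (-0.71), Dnajb11 (-0.69), Pdia6 (-0.61) and Asns (-3.15). It was higher in liver for Atf3 (1.93) and P4hb (0.29).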

How the results depend on the processing

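With 2 libraries in each group, the counts of called members moved with the tool and with single libraries. DESeq2 called 23 members for the liver genotype over drinks (edgeR 15), 12 on water, 3 on sucrose, 6 on brazzein, in db/db liver 1 when brazzein was set against water and 3 when it was set against sucrose, and 22 for the genotype difference between tissues (edgeR 13). Over all genes it called 4848 for the liver genotype, against 2937. Library totals gave 1 call on water, no filter on low counts gave 0 on sucrose, and water and sucrose libraries alone gave 7 over the drinks. Leaving out 1 library gave 5 to 19 calls for the liver genotype over drinks, 0 to 11 on water, 0 to 1 on sucrose, on brazzein, for brazzein against sucrose in db/db and for the genotype by drink test, and 8 to 18 for the difference between tissues, where the highest came without the first db/+ water liver. How many of all genes were called with 1 library left out is not given here. Within a tissue, replicate numbers showed no pairing of the libraries. Correlations of replicate differences between groups ran from -0.105 to 0.0921 over 15 pairs in liver and from -0.0405 to 0.0404 in brain. Pairing of liver with brain libraries was not tested. The replicate block gave 14 calls for the liver genotype over drinks and 0 on sucrose. This block and the liver correlations use the numbers of the 2 db/+ brazzein livers, whose order stays unsettled. An exchange would turn the sign of that group's correlations and was not run. The Atf4 difference in liver was 0.14 with library totals and ran from -0.17 to 0.10 over the libraries left out; in brain Atf4 ran from -0.057 to 0.0068 and Xbp1 from -0.060 to 0.32. For liver against brain, library totals turned the sign of Atf4 (-0.22), Derl3 (-0.11), Dnajb9 (-0.59), Ern1 (-0.046), Hyou1 (-0.79), Sel1l (-0.92) and Ppp1r15a (-0.76), the last 3 not called with TMM. The cause of these changes was not tested. Of the recomputed counts 37 moved, either by over 1.5 times or between 0 and a count above 0, and 396 did not. Most comparisons had 0 calls to begin with, so many of the 396 set 0 against 0.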
